A study of Mus musculus with 10 samples.

Results

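The laminin chain genes were followed in RNA-seq of whole mouse kidneys from E13.5 embryos. The members were 9 genes chosen by symbol: the alpha chains *Lama1*, *Lama2*, *Lama3*, *Lama4* and *Lama5*, the beta chains *Lamb1*, *Lamb2* and *Lamb3*, and the gamma chain *Lamc1*. Each was found once among the 35663 entries of the table. The 10 libraries came from embryos of strain C57/b6. Wild-type kidneys (n = 4) carried no engineered allele by their label. Foxd1GC control kidneys (n = 3) carried Foxd1-Cre, in which the Foxd1 locus drives Cre recombinase in stromal progenitors. Ntn1SPKO kidneys (n = 3) carried the same Cre allele with conditional (floxed) alleles of *Ntn1*, so that netrin 1 was deleted in the Foxd1 stromal lineage alone and cells outside it kept the gene. The labels do not say whether the libraries of a group came from separate embryos, so p-values measure the spread between these libraries, which may be technical in part.

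Laminins are secreted trimers of 1 alpha, 1 beta and 1 gamma chain that polymerise into a sheet and anchor the basement membrane to cells through integrins and dystroglycan. The alpha chain carries most of the receptor-binding part. In the kidney, *Lama1* is known from the basement membranes of early nephron epithelium, *Lama5* from those of the ureteric epithelium, maturing tubules and glomeruli, and *Lamb2* from the glomerular filter and arterial smooth muscle. *Lama4* is known from endothelial and mesenchymal matrix, *Lama2* from muscle and peripheral nerve, and *Lama3* and *Lamb3* from the laminin that anchors stratified epithelia. Netrin 1, which was deleted here, is a secreted guidance protein whose N-terminal part is built of laminin-like domains.

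The values are FPKM, that is fragment numbers scaled by transcript length and library size, so that levels of different genes may be set side by side. A rough depth was taken as the most frequent depth at which a gene's value would stand for 1 fragment, given its coding length. It was sought only within a preset range. It was 26.5 to 31.5 M fragments per library, and the rough fragment numbers below rest on it. *Ntn1*, the deleted gene, was at 10.7 to 16.3 FPKM in Ntn1SPKO kidneys, 24.2 to 51.4 FPKM in Foxd1GC control kidneys and 27.1 to 46.3 FPKM in wild-type kidneys, so the groups with and without the deletion did not overlap. Markers of kidney lineages were present throughout, with a summed level of the 9 nephron progenitor markers of 355 to 474 FPKM per library. Y-linked transcripts (*Ddx3y*, *Eif2s3y*, *Kdm5d* and *Uty*, summed) were at 88.6 to 98.1 FPKM in wild-type replicate 3, Foxd1GC control replicate 2 and all 3 Ntn1SPKO libraries, and at 1.02 FPKM or less in the others, so embryo sex and genotype overlapped in part. Foxd1GC control replicate 3 stood apart from the rest. Of 14534 entries averaging 0.5 FPKM or more, it held the lowest value for 24.1% and the highest for 20.7%.

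Laminin gamma and alpha chain RNA was abundant in the E13.5 kidney, and the chains spanned from 73.2 FPKM to under 0.5 FPKM in wild-type kidneys. *Lamc1*, the gamma chain of most laminins, was the highest member in all but 1 library. It was at 82.8, 78.8, 52.4 and 78.6 FPKM in wild-type replicates 1 to 4, at 68.5, 55.9 and 49.0 FPKM in Foxd1GC control replicates 1 to 3, and at 71.7, 65.4 and 63.0 FPKM in Ntn1SPKO replicates 1 to 3. The exception was Foxd1GC control replicate 3, where *Lama4* was marginally above it. Among wild-type libraries, replicate 3 stood below the others, and it was the only wild-type library with Y-linked transcripts.

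*Lama4* was the highest alpha chain in every library. Its level was 38.7, 39.1, 32.7 and 43.3 FPKM in wild-type, 45.5, 31.5 and 49.4 FPKM in Foxd1GC control and 34.7, 29.8 and 30.1 FPKM in Ntn1SPKO kidneys, in replicate order. *Lamb2*, the highest beta chain, was at 26.6, 25.0, 25.7 and 27.3 FPKM in wild-type, 36.7, 26.3 and 40.95 FPKM in Foxd1GC control and 26.3, 24.1 and 29.1 FPKM in Ntn1SPKO kidneys. Wild-type and Ntn1SPKO libraries shared 1 range of *Lamb2*, whereas Foxd1GC control replicates 1 and 3 lay above all of them.

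*Lama1* and *Lama5*, the epithelial alpha chains, were close in level. *Lama1* was at 13.3, 13.1, 8.35 and 10.5 FPKM in wild-type, 8.15, 8.34 and 2.37 FPKM in Foxd1GC control and 9.09, 8.64 and 8.05 FPKM in Ntn1SPKO kidneys. *Lama5* was at 11.4, 9.93, 8.47 and 10.3 FPKM, at 8.90, 8.42 and 3.90 FPKM and at 8.87, 9.18 and 8.71 FPKM in the same order. For both genes Foxd1GC control replicate 3 was far below the other 9 libraries, in which the ratio of *Lama5* to *Lama1* was 0.757 to 1.09, against 1.65 in that library.

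*Lama2* and *Lamb1* were lower. *Lama2* was at 5.24, 4.56, 3.90 and 4.50 FPKM in wild-type, 5.12, 4.17 and 5.73 FPKM in Foxd1GC control and 4.19, 4.07 and 4.86 FPKM in Ntn1SPKO kidneys, which overlapped throughout. *Lamb1*, the beta chain of the earliest embryonic laminins, was at 2.60, 2.20, 1.80 and 1.87 FPKM in wild-type, 2.78, 3.69 and 4.399 FPKM in Foxd1GC control and 1.59, 2.53 and 2.52 FPKM in Ntn1SPKO kidneys. All 3 Foxd1GC control libraries lay above every library of the other groups.

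*Lama3* and *Lamb3*, chains of stratified-epithelium laminin, were near the lower end of detection. *Lama3* was at 0.471, 0.482, 0.313 and 0.414 FPKM in wild-type, 0.362, 0.303 and 0.427 FPKM in Foxd1GC control and 0.268, 0.215 and 0.267 FPKM in Ntn1SPKO kidneys, a rough 66 to 152 fragments per library. The 3 Ntn1SPKO libraries were below every other library. *Lamb3* was at 0.514, 0.144, 0.184 and 0.186 FPKM, 0.274, 0.192 and 0.264 FPKM and 0.165, 0.437 and 0.130 FPKM, a rough 12 to 57 fragments. Its high values fell on 1 wild-type and 1 Ntn1SPKO library. *Lamc3*, a gamma chain outside the 9 members, was at 0.608 to 4.87 FPKM over all libraries, with its highest value in wild-type replicate 2.

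**Figure D1:**
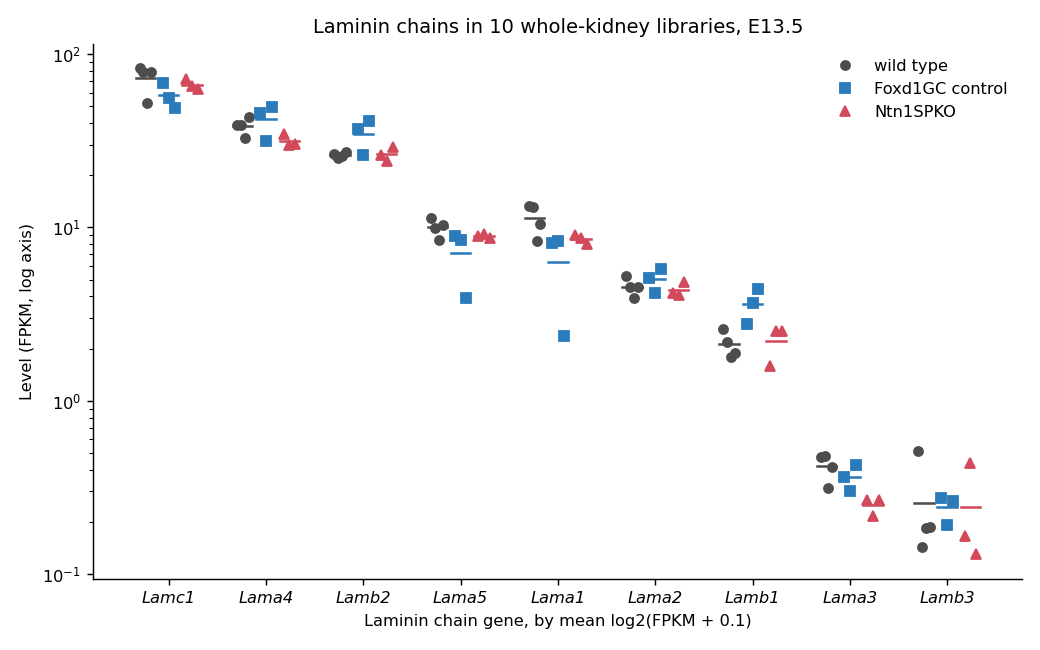
FPKM (log axis) of the 9 laminin chains, ordered by mean log2(FPKM + 0.1), with 1 point per library and a short line at each group mean; grey circles are wild type, blue squares Foxd1GC control and red triangles Ntn1SPKO. *Lamc1* leads at 49.0 to 82.8 FPKM, *Lama3* and *Lamb3* lie below 1 FPKM, and 1 control library is low for *Lama1* (2.37 FPKM) and *Lama5* (3.90 FPKM).

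The order by mean log2(FPKM + 0.1) over the 10 libraries was *Lamc1*, *Lama4*, *Lamb2*, *Lama5*, *Lama1*, *Lama2*, *Lamb1*, *Lama3* and *Lamb3*. Neighbours were compared within libraries by an exact sign-flip permutation test, two-sided, whose smallest p over 10 libraries is 0.00195, with Benjamini-Hochberg adjustment over the 8 pairs. *Lama5* and *Lama1* did not differ beyond their spread (mean log2 difference 0.038, SD 0.28, adjusted p = 0.713, *Lama5* higher in 6 of 10 libraries). The *Lama3* to *Lamb3* step was the next least firm, with a mean log2 difference of 0.42 (SD 0.55, adjusted p = 0.0491, 8 of 10 libraries). *Lamc1* exceeded *Lama4* by a mean of 0.83 on the log2 scale (SD 0.35, adjusted p = 0.00626, 9 of 10 libraries), and *Lama1* exceeded *Lama2* by 0.84 (SD 0.77, adjusted p = 0.0235, 9 of 10 libraries). The other 4 steps each held in 10 of 10 libraries (adjusted p = 0.0039).

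*Lama4* predominated among the alpha chains and *Lamb2* among the beta chains. *Lama4* made up 56.1% to 62.8% of the summed alpha-chain FPKM in wild-type and 57.4% to 60.7% in Ntn1SPKO kidneys, and 66.9%, 59.7% and 79.9% in Foxd1GC control replicates 1 to 3. *Lama1* made up 15.2% to 19.5% in wild-type, 15.5% to 16.6% in Ntn1SPKO and 12.0%, 15.8% and 3.83% in the Foxd1GC control libraries. *Lama5* took a share much like that of *Lama1*, at 14.8% to 16.4%, 15.5% to 17.7% and 13.1%, 16.0% and 6.31%. For each of these chains the ranges of mutant and wild-type libraries overlapped, and Foxd1GC control replicate 3 was the library whose makeup departed most.

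**Figure D2:**
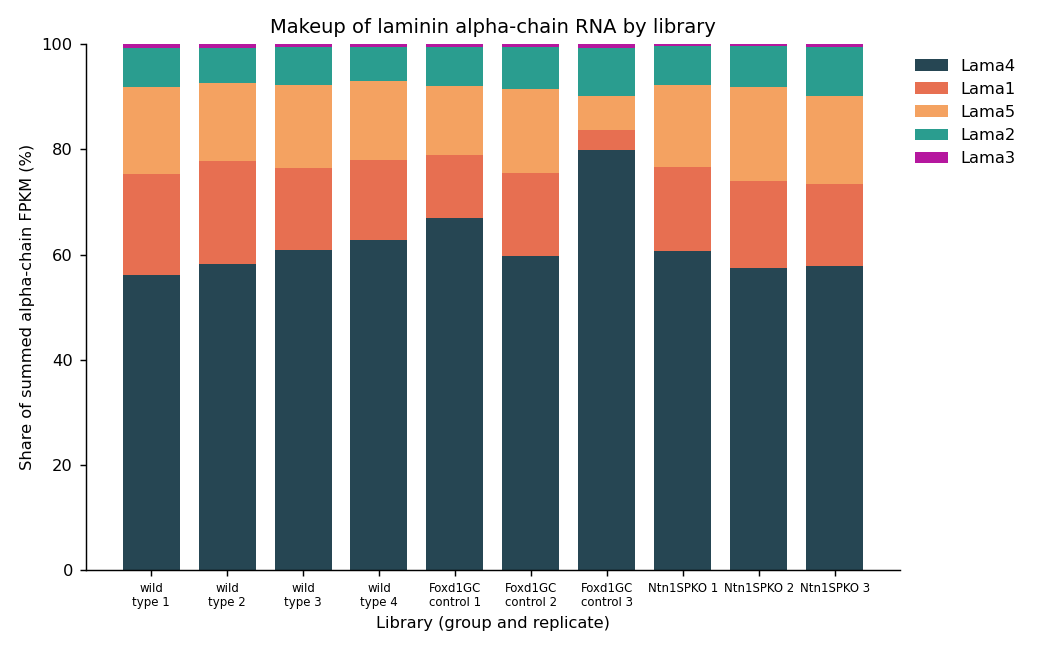
Share (%) of each alpha chain in the summed alpha-chain FPKM of a library, as 1 stacked bar per library. *Lama4* takes 56.1% to 66.9% of the sum in 9 libraries and 79.9% in Foxd1GC control replicate 3, where the shares of *Lama1* and *Lama5* are the smallest.

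*Lamb2* made up 87.1% to 93.7% of the beta-chain sum in all 10 libraries, and *Lamb1* took 5.69% to 12.2%. Summed alpha-chain RNA was 0.794 to 1.26 times that of *Lamc1*. Summed beta-chain RNA was below *Lamc1* in every library, at 0.347 to 0.931 times its level, although a trimer holds 1 of each. These ratios are of RNA levels and say nothing of how much protein was made.

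The comparison of Ntn1SPKO with Foxd1GC control kidneys addresses what changed when stromal netrin 1 was lost on the same Cre background. No laminin chain passed the test. *Lamb1*, with the lowly expressed *Lama3*, lay lower in every mutant library than in every control library. Groups did not overlap for 19.9% of all genes tested. Of the 9 chains, 7 averaged 0.5 FPKM or more in these libraries and were tested, and 0 were called (limma adjusted p below 0.1 and a change of 2-fold or more), where 0.0550% of the 14550 genes tested were called. At an unadjusted p under 0.05 there was 1 chain, *Lamb1*, against 10.7% of all genes tested. A count of 1 among 7 is near this share and near the share without overlap. The median log2 difference of the 7 chains was −0.18, beside 0.0067 over all genes tested, with 4 chains lower and 3 higher. The deleted gene *Ntn1* was not called in this comparison either (limma adjusted p = 0.447), so a chain that was not called may still have changed. In whole-kidney RNA, fewer cells of a type cannot be told apart from less RNA per cell.

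*Lamb1* was at 2.22 ± 0.539 FPKM (SD, n = 3) in Ntn1SPKO and 3.62 ± 0.813 FPKM (n = 3) in Foxd1GC control kidneys. Its log2 difference was −0.69 (SE 0.25, limma adjusted p = 0.447), and the groups did not overlap (exact permutation p = 0.1, two-sided, the smallest that 3 against 3 libraries allow). *Lamb1* was the only tested chain whose groups did not overlap in this comparison, against 19.9% of all genes tested. Over the alternatives its difference was −0.86 to −0.48, with adjusted p from 0.248 to 1.

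*Lama4* and *Lamb2* had lower mutant means without passing the test. *Lama4* differed by −0.39 on the log2 scale (SE 0.17, limma adjusted p = 0.447) and *Lamb2* by −0.37 (SE 0.17, adjusted p = 0.449). Leaving out 1 library at a time gave −0.59 (without Foxd1GC control replicate 2) to −0.27 (without replicate 3) for *Lama4*, and −0.55 to −0.23 for *Lamb2* without the same libraries. The epithelial chains had higher mutant means, by 0.64 for *Lama1* (SE 0.47, adjusted p = 0.539) and 0.42 for *Lama5* (SE 0.31, adjusted p = 0.54). Without Foxd1GC control replicate 3 the difference was 0.058 for *Lama1* and 0.042 for *Lama5*, so both values rested on that library. Without Foxd1GC control replicate 2 they were 0.94 and 0.59. Fits without that library, for *Lama4* and *Lamb2* too, left Y-linked transcripts in every mutant and no control library. Sex and genotype cannot be told apart in them. With embryo sex as a covariate, which in effect set the mutants against that replicate 2 alone, *Lama1* differed by 0.041, *Lama5* by 0.082 and *Lama4* by −0.00080. *Lamc1* differed by 0.22 (SE 0.13, adjusted p = 0.478) and *Lama2* by −0.18 (SE 0.15, adjusted p = 0.58). Without Foxd1GC control replicate 3, 0 of the 7 chains had an unadjusted p under 0.05, where 7.23% of all genes tested did, and a count of 0 among 7 is near that share.

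*Lama3* lay below the filter, so it has no place in the counts above. In a fit with no filter it differed by −0.40 (SE 0.25, limma adjusted p = 0.597) from Foxd1GC control and by −0.56 (SE 0.21, adjusted p = 0.828) from wild-type kidneys. The Ntn1SPKO libraries were below all control libraries (exact permutation p = 0.1) and all wild-type libraries (exact permutation p = 0.0571). Both comparisons share the mutant libraries and are not separate evidence. The share of genes below the filter whose groups do not overlap was not computed. Neither difference passed the adjusted threshold, and the level is at most 0.482 FPKM anywhere. *Lamb3*, its partner, differed by −0.095 (SE 0.38) and −0.055 (SE 0.43) and overlapped in both.

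Against wild-type kidneys no laminin chain of the Ntn1SPKO libraries passed the test either, and the log2 differences of the 7 tested chains ran from −0.37 for *Lama1* to 0.048 for *Lamb1*. Again 0 of 7 tested chains were called, where 0.0485% of 14432 genes tested were called. The median log2 difference of the chains was −0.11, beside 0.0034 over all genes tested. *Lama4* was the 1 chain with an unadjusted p under 0.05, against 5.76% of all genes tested, and for 0 of the 7 chains were the groups separate, against 7.10% of all genes tested. *Lama4* was at 31.5 ± 2.71 FPKM (SD, n = 3) against 38.4 ± 4.39 FPKM (n = 4), a log2 difference of −0.28 (SE 0.11, limma adjusted p = 0.782, exact permutation p = 0.0857). All 3 mutant libraries were below the wild-type mean, but Ntn1SPKO replicate 1 lay above wild-type replicate 3.

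*Lama1* differed from wild type by −0.37 (SE 0.16, limma adjusted p = 0.882), with 3 of 3 Ntn1SPKO libraries below the wild-type mean and an overlap with wild-type replicate 3. *Lama5* differed by −0.16 (SE 0.10, adjusted p = 0.947) and *Lamc1* by −0.11 (SE 0.16, adjusted p = 0.956). *Lamb1* (0.048, SE 0.21), *Lamb2* (0.014, SE 0.078) and *Lama2* (−0.051, SE 0.12) were within 0.1 of 0 on the log2 scale. Wild-type replicate 3 weighed on this comparison. In 5 of the 7 fits that left out 1 library (wild-type replicate 1, 2 or 4, or Ntn1SPKO replicate 2 or 3) 0 chains had an unadjusted p under 0.05, *Lama4* included, and without Ntn1SPKO replicate 1 only *Lama4* did. Without wild-type replicate 3, 4 chains had an unadjusted p under 0.05 (*Lama1*, *Lama4*, *Lama5* and *Lamc1*, all lower in Ntn1SPKO kidneys), against 7.35% of all genes tested, and the lowest adjusted p of a chain was 0.32. In that fit every mutant library and no wild-type library held Y-linked transcripts, so sex and genotype cannot be told apart. With embryo sex as a covariate the mutants were in effect set against wild-type replicate 3 alone. The difference of *Lamc1* then turned to 0.35 (adjusted p = 0.0425), short of a 2-fold change, in a fit where 30.1% of all genes tested had an unadjusted p under 0.05.

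The comparison of Foxd1GC control with wild-type kidneys gives the background of the Cre allele. The authors state that this allele also means the loss of a *Foxd1* allele. Cre and that loss cannot be told apart here. All 3 control libraries held more *Lamb1* and less *Lama1* than all 4 wild-type libraries, without either chain passing the test. Of 7 chains tested 0 were called, where 0.00685% of 14594 genes tested were called, and their median log2 difference was 0.11, beside −0.0072 over all genes tested. An unadjusted p under 0.05 was found for 3 chains (*Lama1*, *Lamb1* and *Lamb2*), against 7.06% of all genes tested, and 2 chains (*Lama1* lower, *Lamb1* higher) had groups that did not overlap, against 8.09%. Without Foxd1GC control replicate 3 only *Lamb1* of these 3 kept an unadjusted p under 0.05, against 3.7% of all genes tested in that fit, and the median was −0.016.

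*Lamb1* was 1.67-fold higher in Foxd1GC control than in wild-type kidneys (3.62 ± 0.813 FPKM, n = 3, against 2.12 ± 0.366 FPKM, n = 4). Its log2 difference was 0.74 (SE 0.20, limma adjusted p = 0.665, exact permutation p = 0.0286, the smallest that 3 against 4 libraries allow). It stayed between 0.59 and 0.91 when any of the 7 libraries was left out, with an unadjusted p under 0.05 each time. The comparisons of *Lamb1* with mutant and wild-type kidneys share the control libraries and are not separate evidence. Its own counterpart *Lamb2* had a log2 difference of 0.38 (SE 0.15, adjusted p = 0.665, exact permutation p = 0.0857), with Foxd1GC control replicate 2 inside the wild-type range.

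*Lama1* was at 6.29 ± 3.39 FPKM in Foxd1GC control against 11.3 ± 2.35 FPKM in wild-type kidneys, a log2 difference of −1.01 (SE 0.43, limma adjusted p = 0.665, exact permutation p = 0.0286). The groups were separate by a narrow margin, as the highest control library was at 8.34 FPKM and the lowest wild-type library at 8.35 FPKM. Without Foxd1GC control replicate 3 the difference was −0.43. *Lama5* differed by −0.58 (SE 0.28, adjusted p = 0.665) and by −0.20 without that library. *Lamc1* differed by −0.33 (SE 0.18), *Lama2* by 0.13 (SE 0.15) and *Lama4* by 0.11 (SE 0.17), the last turning to −0.016 without it.

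**Figure D3:**
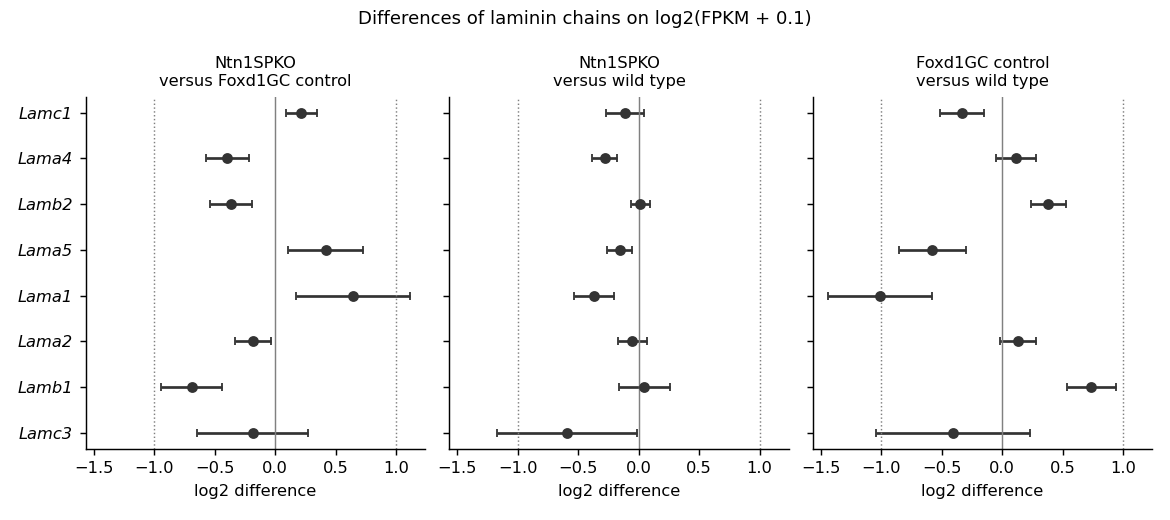
Log2 differences of 7 tested laminin chains and of *Lamc3* on the log2(FPKM + 0.1) scale, in 3 comparisons; points are limma estimates, bars 1 SE, and dotted lines mark a 2-fold change. In Ntn1SPKO against wild-type kidneys every tested member lies within 0.37 of 0, and *Lamb1* stands at −0.69 and 0.74 in the comparisons that involve the Foxd1GC control libraries.

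Marker RNA of several cell types stood apart in Foxd1GC control replicate 3. The summed level of 10 ureteric epithelium markers was 117 FPKM there, against 253 to 297 FPKM in the other libraries, and 9 of the 10 were lowest there. The 7 early nephron markers summed to 133 FPKM, against 198 to 278 FPKM elsewhere, with 5 of 7 lowest there. Epithelial marker RNA was thus low in the library in which *Lama1* and *Lama5* were low. The 12 cortical stroma markers found in the table summed to 2614 FPKM, against 1503 to 2283 FPKM elsewhere, with 6 of 12 highest and 2 lowest there. The 8 smooth muscle markers summed to 125 FPKM, against 40.1 to 59.5 FPKM, with 4 of 8 highest there. The 9 nephron progenitor markers summed to 474 FPKM, against 355 to 454 FPKM, with 5 of 9 highest and 1 lowest there. The 20 skeletal muscle markers summed to 1076 FPKM, against 25.4 to 237 FPKM, and all 20 were highest there. In the same library *Lama2*, *Lama4*, *Lamb1* and *Lamb2* had their highest values of all 10. None of the markers in these lists was at 0 in every library. The part of cell makeup in the chain differences was not tested. Foxd1GC control replicate 2 had summed stroma markers of 1503 FPKM, little below the lowest Ntn1SPKO and wild-type libraries (1540 and 1543 FPKM). Its smooth muscle markers were within the range of the other groups (47.1 FPKM), and it held more *Lamb1* than any library outside its group. Whether *Lamb1* goes with these markers was not tested.

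**Figure D4:**
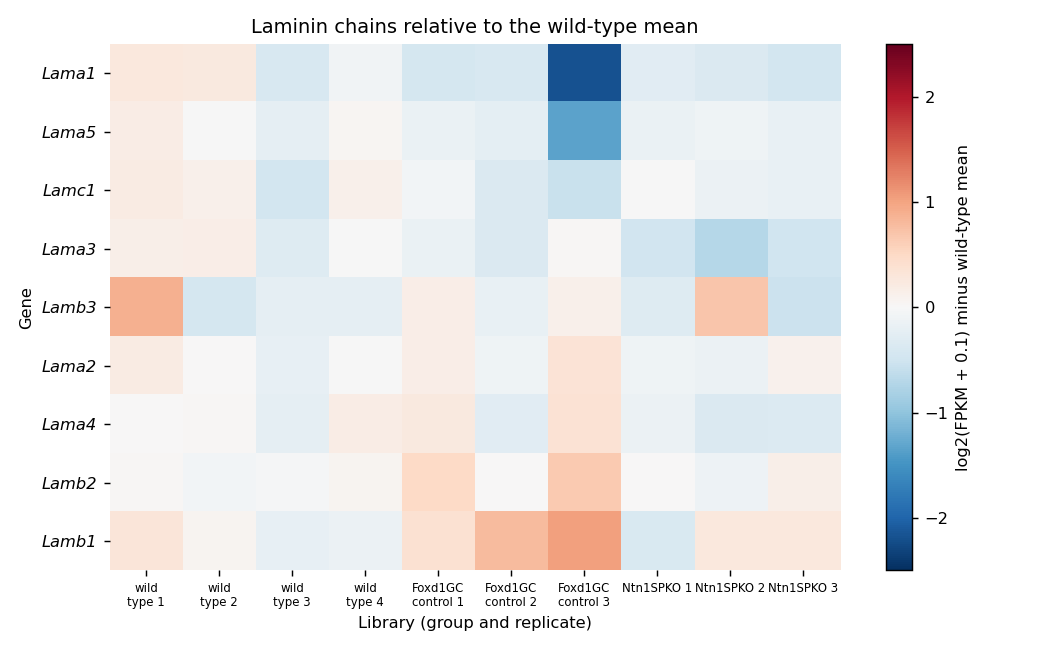
Heat map of log2(FPKM + 0.1) minus the wild-type mean for the 9 laminin chains (rows) in 10 libraries (columns); blue is below and red above the wild-type mean. Foxd1GC control replicate 3 is lowest for *Lama1*, *Lama5* and *Lamc1* and highest for *Lama2*, *Lama4*, *Lamb2* and *Lamb1*.

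Some chains varied together over libraries. Among 21 pairs of the 7 chains averaging 0.5 FPKM or more, 4 had a Benjamini-Hochberg adjusted permutation p under 0.05 for Pearson's r over the 10 libraries. The share of pairs of all genes that would pass was not computed. Foxd1GC control replicate 3 held an extreme value for many genes, so the count of 4 says nothing particular to laminins. *Lama1* and *Lama5* had r = 0.982 (permutation p = 0.00058, adjusted p = 0.00406) and Spearman's rho = 0.83 (permutation p = 0.00435). Leaving out wild-type replicate 1 and Foxd1GC control replicate 3, the libraries farthest from the median of *Lama1*, gave r = 0.809. *Lamc1* varied with both. For *Lama5* and *Lamc1* r was 0.773 (permutation p = 1e-05, the smallest that 100000 permutations can give, adjusted p = 0.00021), rho was 0.927 (permutation p = 0.00036), and r was 0.867 without the same 2 libraries. For *Lama1* and *Lamc1* r was 0.782 (permutation p = 0.00022, adjusted p = 0.00231), rho was 0.855 (permutation p = 0.00306), and r was 0.72 without them.

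The pair outside *Lama1*, *Lama5* and *Lamc1* was *Lama2* and *Lamb2*, with r = 0.79 (permutation p = 0.00384, adjusted p = 0.0202) and rho = 0.77 (permutation p = 0.0122). Without wild-type replicate 3 and Foxd1GC control replicate 3 their r was 0.633. Between *Lama1* and *Lamb2* the relation was inverse, and it rested on 1 library. Their r was −0.769 (permutation p = 0.0167, adjusted p = 0.0585) and rho −0.527 (permutation p = 0.123), and r was −0.334 without Foxd1GC control replicate 3. All these relations pool 3 groups of libraries, and differences between groups enter them.

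**Figure D5:**
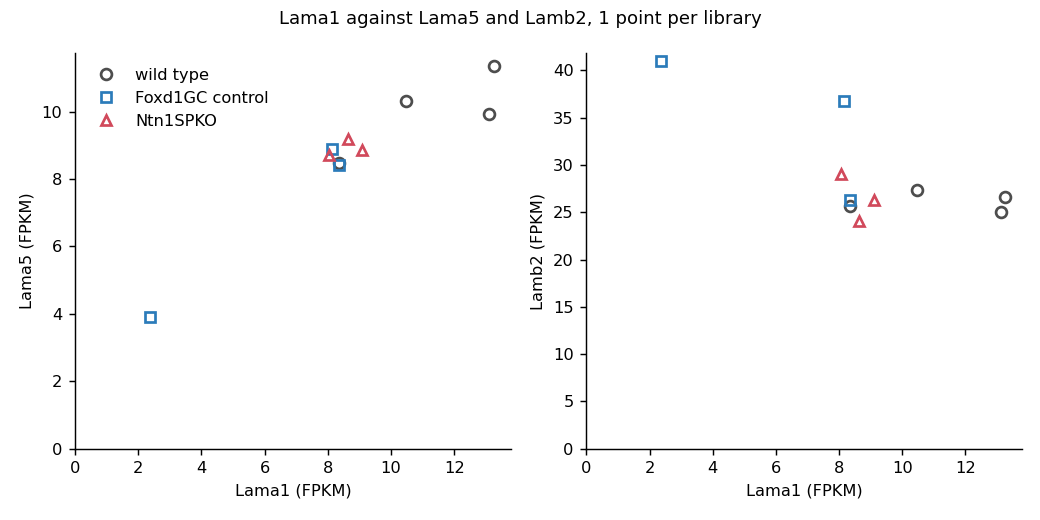
Levels (FPKM) of *Lama1* against *Lama5* (left) and against *Lamb2* (right), 1 open symbol per library, with both axes from 0. *Lama1* and *Lama5* rise together (r = 0.982, and 0.809 without the 2 farthest libraries), whereas the inverse relation with *Lamb2* (r = −0.769) hangs on the library at 2.37 FPKM of *Lama1*.

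Over all 14534 entries averaging 0.5 FPKM or more, the gene whose log2 level was most like that of *Lama1* was *Lama5*, and that of *Lama5* was *Lama1* (Pearson's r = 0.98, n = 10 libraries). The gene most like *Lama2* was *Col25a1*, a membrane collagen (r = 0.99), that most like *Lama4* was *Plagl1*, an imprinted zinc finger factor (r = 0.98), and that most like *Lamb2* was *Galnt16*, an enzyme of O-glycosylation (r = 0.985). *Lamb1* was most like *St6galnac4*, a sialyltransferase (r = 0.958), and *Lamc1* most like the X-linked helicase gene *Ddx3x* (r = 0.957). These are the best of many genes over few libraries and are given as a description. The number of genes with r over 0.9 was 225 for *Lama1*, 183 for *Lama5* and 140 for *Lamb2*, and 6 for *Lamb1*.

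The promoter sequences listed for 3 chains are shown because *Lama2* and *Lamb2* varied together and *Lama5* varied with *Lama1* and *Lamc1*. Of the 9 members, 5 had an entry among the RefSeq promoters of GRCm38.p6. The 250 bases before each start site are given 5′ to 3′ on the strand of the gene, and capitals mark the GC box (GGGCGG on either strand, the core bound by Sp1-type factors). The *Lama5* window lies at chr2:180225860-180226109 on the minus strand, that of *Lama2* at chr10:27616943-27617192 on the minus strand and that of *Lamb2* at chr9:108479612-108479861 on the plus strand. The *Lama2* window falls within the annotated gene (26980036 to 27619758), and the *Lamb2* window runs past the annotated gene start at 108479736. These windows thus belong to start sites inside the annotated genes.
Lama5: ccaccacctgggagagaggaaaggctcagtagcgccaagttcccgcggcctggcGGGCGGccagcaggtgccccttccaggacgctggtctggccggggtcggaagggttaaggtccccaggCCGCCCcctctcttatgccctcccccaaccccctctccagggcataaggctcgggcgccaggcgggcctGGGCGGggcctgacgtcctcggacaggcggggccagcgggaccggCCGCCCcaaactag
Lama2: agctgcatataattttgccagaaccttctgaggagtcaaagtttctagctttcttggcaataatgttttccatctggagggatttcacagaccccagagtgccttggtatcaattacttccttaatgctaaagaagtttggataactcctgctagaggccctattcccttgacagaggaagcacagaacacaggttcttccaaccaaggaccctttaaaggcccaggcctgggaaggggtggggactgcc
Lamb2: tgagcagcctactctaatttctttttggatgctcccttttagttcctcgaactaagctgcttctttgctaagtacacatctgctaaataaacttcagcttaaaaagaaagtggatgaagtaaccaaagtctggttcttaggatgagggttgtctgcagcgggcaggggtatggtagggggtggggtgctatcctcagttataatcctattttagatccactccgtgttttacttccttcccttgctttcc
The *Lama5* sequence held 4 GC boxes and 19 CpG dinucleotides, with 72.4% G and C. The *Lama2* sequence held 0 GC boxes and 0 CpG dinucleotides (47.2% G and C), and the *Lamb2* sequence 0 GC boxes and 3 CpG dinucleotides (43.6% G and C). Of 32851 promoters of this length, 32.7% held a GC box and the median number of CpG dinucleotides was 6. None of the 3 held a TATAAA motif on either strand, which 12.4% of all promoters did. Of the members not shown, the *Lamb1* window held 2 GC boxes and 14 CpG dinucleotides. The windows of *Lamb3* held 0 GC boxes, with 2 and 3 CpG dinucleotides. *Lama1* and *Lamc1* had no entry, so *Lama5* could not be set beside them. Matches are a description of these windows alone.

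The gene bodies are dispersed. In GRCm38, *Lama1* lies on chromosome 17 from 67697259 to 67822647 (63 coding exons in its longest coding transcript), *Lama5* on chromosome 2 from 180176373 to 180225859 (79 coding exons), and *Lamb1* on chromosome 12 from 31265234 to 31329644 (33 coding exons). *Lama2* and *Lama4* are both on chromosome 10, and *Lamc1* is on chromosome 1, from 153218922 to 153332786. At most 0.207% of the 31-base words of any chain's longest coding transcript occurred in another gene.

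No partner gene of the laminins passed the test. It did not call the deleted gene *Ntn1* either (limma adjusted p = 0.447 against Foxd1GC control and 0.14 against wild-type kidneys). Of 17 other basement membrane components, 14 were tested in each comparison and 0 were called or had an unadjusted p under 0.05, where 10.7%, 5.76% and 7.06% of all genes tested had such a p, with median log2 differences of −0.024, 0.019 and −0.050 in Ntn1SPKO against control, Ntn1SPKO against wild type and control against wild type. The highest of them were *Sparc*, a collagen-binding matrix protein (307 FPKM on average), *Col4a1*, a chain of the collagen IV network (195 FPKM), and *Pxdn*, the peroxidase that crosslinks it (69.8 FPKM). *Sparc* differed by −0.29 (SE 0.16, limma adjusted p = 0.467) between Ntn1SPKO and Foxd1GC control kidneys and by 0.036 (SE 0.069) between Ntn1SPKO and wild type. *Col4a1* differed by 0.20 (SE 0.11) and 0.10 (SE 0.18), and *Pxdn* by 0.034 (SE 0.076) and −0.011 (SE 0.10).

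Of 11 laminin receptors and co-receptors, 10 were tested in each comparison and 0 were called or had an unadjusted p under 0.05, against the same shares of all genes tested. *Itgb1*, the beta subunit shared by most laminin-binding integrins, was at 160 FPKM on average and differed by 0.049 (SE 0.056) from Foxd1GC control and 0.031 (SE 0.059) from wild-type kidneys in the mutants. *Itga6*, its laminin-specific alpha subunit, was at 89.3 FPKM and differed by 0.15 (SE 0.14) and −0.017 (SE 0.065). *Bcam*, a receptor of *Lama5*-containing laminins, was at 77.9 FPKM. Its difference of 0.55 from Foxd1GC control (SE 0.37, limma adjusted p = 0.517) was 0.090 from wild type (SE 0.12), and its lowest value, 33.0 FPKM, was in the Foxd1GC control group.

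All 12 genes that glycosylate dystroglycan for laminin binding were tested, and 0 were called or had an unadjusted p under 0.05 in any comparison. At those shares counts of 0 among 10 to 14 genes say little about a list. The highest were *Rxylt1* (29.0 FPKM on average), *Pomgnt1* (25.9 FPKM) and *B3galnt2* (19.7 FPKM), with log2 differences of −0.17 (SE 0.15), −0.21 (SE 0.12) and 0.25 (SE 0.10) between Ntn1SPKO and Foxd1GC control kidneys. Among 6 netrins with a laminin N-terminal domain, 4 were tested in that comparison, and *Ntn1*, the deleted gene, alone had an unadjusted p under 0.05, at −1.48 (SE 0.29, limma adjusted p = 0.447). *Ntn3* (5.34 FPKM on average) differed by −0.45 (SE 0.20, adjusted p = 0.447) and *Ntng1* (1.42 FPKM) by −0.30 (SE 0.22, adjusted p = 0.53). *Ntn3*, like *Lamb1*, was higher in all 3 Foxd1GC control libraries than in the wild-type libraries, at 5.32 to 8.22 FPKM against 4.44 to 4.92 FPKM (log2 difference 0.51, SE 0.15, adjusted p = 0.665).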

How the data were processed

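Whole E13.5 kidneys were profiled by RNA-seq. The authors quantified reads with Salmon against Ensembl GRCm38 coding sequences (bcl2fastq 2.17.1.14 is named in the submitters' notes) and deposited FPKM per gene. How FPKM were computed from the Salmon output is not given in the sources used here. Median-of-ratios factors were equal (1.00175) in all 10 libraries, so FPKM were used as deposited.

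Genes averaging 0.5 FPKM or more in the libraries of a fit were compared as log2(FPKM + 0.1) by limma 3.58.1 (R 4.3.3, eBayes with an intensity trend), adjusted by Benjamini-Hochberg over all genes tested. Fold changes on this scale are understated for low genes. Single genes also had an exact permutation test, two-sided (scipy 1.17.1). The steps were tested on simulated data. Alternatives were other pseudocounts (1 and 0.01), filters, scalings, eBayes settings and thresholds, all 10 libraries in 1 fit, a replicate block, embryo sex, and leaving out each library. Counts of chains at an unadjusted p under 0.05 without single libraries or with sex were added after seeing the data. Members and lists were chosen with earlier results of these data known. Genes named were the chains, *Ntn1*, the 3 highest and any called or at an unadjusted p under 0.05 in Ntn1SPKO against Foxd1GC control kidneys in each list, and the gene most like each chain. Positions are from GENCODE M21.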

Additional observations from a re-analysis of the deposited data

Results flagged for a closer look

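In 9 groups of 4 wild-type values, 1 for each chain, 2 had a library whose gap to its nearest neighbour was too large a part of the range by Dixon's 95% limit. Chance gives about 1 in 20 such groups. The share of all genes that pass this rule in the wild-type libraries was not computed, so the count of 2 is not a result about laminins. *Lamb3* was at 0.514 FPKM in wild-type replicate 1 and at 0.144 to 0.186 FPKM in the others, a rough 57 fragments at most. *Lamc1* was at 52.4 FPKM in wild-type replicate 3 and at 78.6 to 82.8 FPKM in the others. That library was the only wild-type one with Y-linked transcripts, and its summed FPKM was 1002638 against 795829 to 809645 in the other wild-type libraries. The part of either in the value was not tested.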

How the results depend on the processing

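In the alternative fits 0 chains were called in any comparison. With an unadjusted p under 0.1 and at least a 2-fold change, 1 chain, *Lama1*, counted in Foxd1GC control against wild-type kidneys. Of 392 values of single chains under alternatives, 376 kept their direction and side of the threshold, and 16 turned direction. Other filters, other eBayes settings and the fit of all 10 libraries leave a log2 difference as it is. Its direction could not turn there, so the count of 376 is no measure of how firm the directions are. With embryo sex as a covariate, *Lama2* was 0.065 and *Lamb2* 0.0079 in Ntn1SPKO against Foxd1GC control, and *Lama1* was 0.039, *Lama2* 0.16, *Lama5* 0.073 and *Lamc1* 0.35 in Ntn1SPKO against wild type; the median of the chains turned to 0.041 and 0.073. Rescaling to the same total put *Lama2* at 0.0033 in Ntn1SPKO against wild type. Leaving out 1 library at a time gave −0.13 to 0.017 for *Lama2*, −0.055 to 0.080 for *Lamb2* and −0.058 to 0.26 for *Lamb1* in Ntn1SPKO against wild type, and −0.016 to 0.31 for *Lama4* in Foxd1GC control against wild type, where the median of the chains was −0.016 to 0.25. The cause was not tested.

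The replicate numbers did not pair the libraries, as deviations of same-numbered libraries correlated at −0.039 to 0.078. The replicate block put *Lamb1* at −0.0028 in Ntn1SPKO against wild type and changed no call of a chain. It left 4, 6 and 0 genes called, against 8, 7 and 1. Over all alternatives the number of genes called was 0 to 78, 0 to 187 and 0 to 20 in Ntn1SPKO against control, Ntn1SPKO against wild type and control against wild type. The highest counts came without Foxd1GC control replicate 2, with embryo sex as a covariate, and without Foxd1GC control replicate 2. Without that library, sex and genotype cannot be told apart in Ntn1SPKO against control. Group sizes of 3 and 4 libraries limit all of these, and *Lama3* and *Lamb3* are also limited by depth.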
